A study of Mus musculus with 24 samples.

Results

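Aminoacyl-tRNA synthetases are the enzymes that join each amino acid to its tRNA, and 36 of their genes were followed here across neurons and astrocytes with and without the stress kinase PERK. They were chosen by gene symbol from the 32728 genes listed in the deposited tables: 20 genes of the cytosolic enzymes and 16 genes of the mitochondrial ones, whose symbols end in 2. All cells came from mice whose Perk gene (Eif2ak3) carries loxP sites on both copies. The cells were cultured and infected with a lentivirus that carried either active Cre recombinase, which cuts out DNA between loxP sites (Perk KO), or the inactive form ΔCre (WT), so WT cells also had the loxP alleles and a virus. Tunicamycin (TM), which blocks N-linked glycosylation and makes unfolded proteins pile up in the endoplasmic reticulum (ER), was added on day in vitro 14 at a dose of 5 µg/mL. Exposure lasted 24 hours by the labels, and the series description gives a range that ends at 24 hours; control cultures had DMSO. The 24 libraries of total RNA form 8 groups of 3: neurons and astrocytes, WT and Perk KO, control and TM. Within a group the libraries are named biological replicates, but no label ties them to separate cultures or mice; p-values therefore measure only the scatter of these libraries, part of which may be technical.

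Synthetases feed charged tRNAs to the ribosomes of the cytosol, and a second, nuclear-encoded set does the same for the ribosomes inside mitochondria. When PERK is activated by ER stress it phosphorylates the translation factor eIF2α; general protein synthesis then slows while the transcription factor ATF4 is made in larger amounts, and ATF4 is known to induce genes of amino acid supply, many cytosolic synthetases among them. In mammals Gars (glycine) and Kars (lysine) serve both compartments from 1 gene each, Eprs joins glutamate and proline synthetases in 1 protein, Farsa and Farsb are the 2 subunits of 1 phenylalanine enzyme, and 8 of the cytosolic genes (Dars, Eprs, Iars, Kars, Lars, Mars, Qars and Rars) encode members of the multisynthetase complex.

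ATF4 binds, with C/EBP proteins, to a short element whose core was searched here as TGATGNAA on both strands, in RefSeq promoter windows of GRCm38.p6 that run from 250 bases before to 50 bases after a gene's start. A window was matched for 13 of the 20 cytosolic and 14 of the 16 mitochondrial genes. The letters were present in 5 of the 13 cytosolic windows (38.5%) and in 0 of the 14 mitochondrial ones, against 1219 of 27025 genes in the whole table (4.51%). The matches are shown because they are sequence that was not used to choose the genes. The cytosolic share covers only 13 of the 20 genes, and 0 of 14 mitochondrial windows lies near the 4.51% over all genes. Whether the 2 sets differ was not tested. Capitals are the matched 8 bases, and each stretch is written 5′ to 3′ on the gene's own strand. A match is a description of letters and not a shown binding site.
Aars, chr8:111033704-111033763, plus strand, match starting 112 bases before the transcript: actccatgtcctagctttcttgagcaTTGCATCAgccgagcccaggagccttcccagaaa
Gars, chr6:55037945-55038000, plus strand, match starting 30 bases before the transcript: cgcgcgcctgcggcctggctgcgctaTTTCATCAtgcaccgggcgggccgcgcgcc
Tars, chr15:11399659-11399699, minus strand, match starting 15 bases before the transcript: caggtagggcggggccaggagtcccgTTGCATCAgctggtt
Iars, chr13:49682127-49682154, plus strand, match from base 8 of the transcript: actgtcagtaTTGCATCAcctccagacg
Yars, chr4:129189896-129189923, plus strand, match from base 4 of the transcript: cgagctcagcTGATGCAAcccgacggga
Aars had another match from base 10 of the transcript, at chr8:111033841-111033868: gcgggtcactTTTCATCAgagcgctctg
In 4 of these 5 genes the first listed match lies on the opposite strand of the gene, and in Yars on the same strand. The other 8 cytosolic windows (Dars, Eprs, Farsa, Farsb, Kars, Mars, Qars and Sars) did not hold these letters.

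The labels were checked first. Eif2ak3, the targeted gene, stood at 39.1, 38.7 and 33.4 CPM (counts-per-million, with library sizes scaled by edgeR's TMM factors) in control WT neurons and at 5.85, 5.30 and 5.22 CPM in control Perk KO neurons, and at 25.1, 27.8 and 24.9 CPM in control WT astrocytes against 5.89, 7.61 and 6.73 CPM in Perk KO ones. Every KO library lay below every WT library of its cell type, and reads of the gene remained in the KO libraries. Library totals ran from 16.03 M to 25.93 M counts, and all 36 synthetase genes passed the low-count filter in all 14 comparisons; the lowest count of any member in any library was 65, for Sars2. The summed level of 12 neuron markers was 7854 to 8202 CPM in control WT neurons and 284 to 327 CPM in control WT astrocytes. The 12 astrocyte markers, however, summed to 3554 to 3854 CPM in the control WT neuron cultures and to 2519 to 3836 CPM in the astrocyte cultures, so the libraries labelled neurons also held astrocyte transcripts. Fibroblast and mural markers summed to 1340.2 to 1508.5 CPM in control WT astrocyte cultures and to 514 to 530 CPM in control WT neuron cultures. Oligodendrocyte lineage markers summed to 396 to 419 CPM in the former and 504 to 580 CPM in the latter. Microglia markers summed to 65.7 to 204 and 42.8 to 70.6 CPM, in the same order. In bulk RNA, fewer cells of a type and less RNA per cell cannot be told apart.

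Without treatment the cytosolic enzymes were expressed several times higher than the mitochondrial ones in both cell types. Per length, the median cytosolic synthetase had 26.4 ± 1.01 RPKM (CPM divided by the gene's length in kilobases; SD, n = 3) in control WT neurons and the median mitochondrial synthetase 4.00 ± 0.475 RPKM. In control WT astrocytes these medians were 42.3 ± 6.96 and 3.77 ± 0.135 RPKM. Nars, the asparagine enzyme, was highest in both, at 164 ± 10.4 RPKM in neurons and 216 ± 49.2 RPKM in astrocytes. In neurons Gars (94.1 ± 6.70 RPKM) and Hars, the histidine enzyme (91.6 ± 8.46 RPKM), came next and did not differ beyond their spread, and the lowest were Qars (12.2 ± 0.975), Farsa (12.2 ± 0.873) and Vars (10.3 ± 0.837 RPKM), where Qars and Farsa did not differ beyond their spread. Among the mitochondrial genes Lars2 (13.6 ± 3.52 RPKM), Rars2 (10.9 ± 1.41) and Iars2 (8.24 ± 0.237) were highest in neurons and Wars2 (1.32 ± 0.0906 RPKM) lowest. In astrocytes Rars2 was highest (10.8 ± 0.739 RPKM). These levels and orders rest on the deposited gene lengths, from 1987 bases for Hars to 18102 for Eprs. Whether those lengths match the transcripts expressed was not tested.

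Between the cell types, synthetases were called no more often than other genes. In WT controls, 10 of the 20 cytosolic genes were lower and 2 higher in neurons than in astrocytes, and of the 16 mitochondrial genes 2 were lower and 6 higher, where 71.1% of 15817 genes tested were called, 35.2% lower and 35.8% higher. A gene was called when its Benjamini-Hochberg adjusted p, over all genes of a comparison in edgeR's quasi-likelihood test, was under 0.05. The largest cytosolic differences were those of Vars (valine), at 56.9, 62.8 and 53.5 CPM in neurons and 139, 176 and 190 CPM in astrocytes (log2 difference, neurons minus astrocytes, -1.504 ± 0.138 SE), Tars (threonine; -1.44 ± 0.16) and Dars (aspartate; -1.41 ± 0.15). Hars (0.86 ± 0.11) and Sars, for serine (0.46 ± 0.14), were the 2 higher in neurons. Aars2, the mitochondrial alanine enzyme, read 26.7, 28.5 and 22.6 CPM in neurons and 11.1, 11.3 and 11.7 CPM in astrocytes (1.23 ± 0.14), without overlap. Sars2 (1.25 ± 0.21), Lars2 (0.93 ± 0.22), Cars2 (0.75 ± 0.16), Pars2 (0.57 ± 0.19) and Mars2 (0.41 ± 0.16) were also higher in neurons, and Ears2 (-0.80 ± 0.25) and Wars2 (-0.70 ± 0.16) lower. The 12 cytosolic and 8 mitochondrial genes called are shares below the 71.1% over all genes. With the GC correction Dars was at -0.63, Aars2 at 0.67, Sars2 at 0.68 and Mars2 at 1.30, and Pars2 (0.38) lost the call. The mitochondrial count of 8 fell to 5 without the control WT astrocyte replicate 2 or 3.

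TM raised nearly the whole cytosolic set in WT neurons. Summed over the 20 genes, the level went from 3507, 3630 and 3309 CPM in the 3 controls to 7139, 6832 and 6836 CPM after TM, while the 16 mitochondrial genes summed to 479, 507 and 532 CPM before and 518, 486 and 616 CPM after. The cytosolic libraries were far apart by treatment and the mitochondrial ones overlapped. As a share of all counts, the cytosolic genes went from 0.322% ± 0.0136 to 0.728% ± 0.0140 (SD, n = 3). The ratio of the cytosolic to the mitochondrial sum was 6.90 ± 0.594 in controls and 12.98 ± 1.63 after TM.

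**Figure D1:**
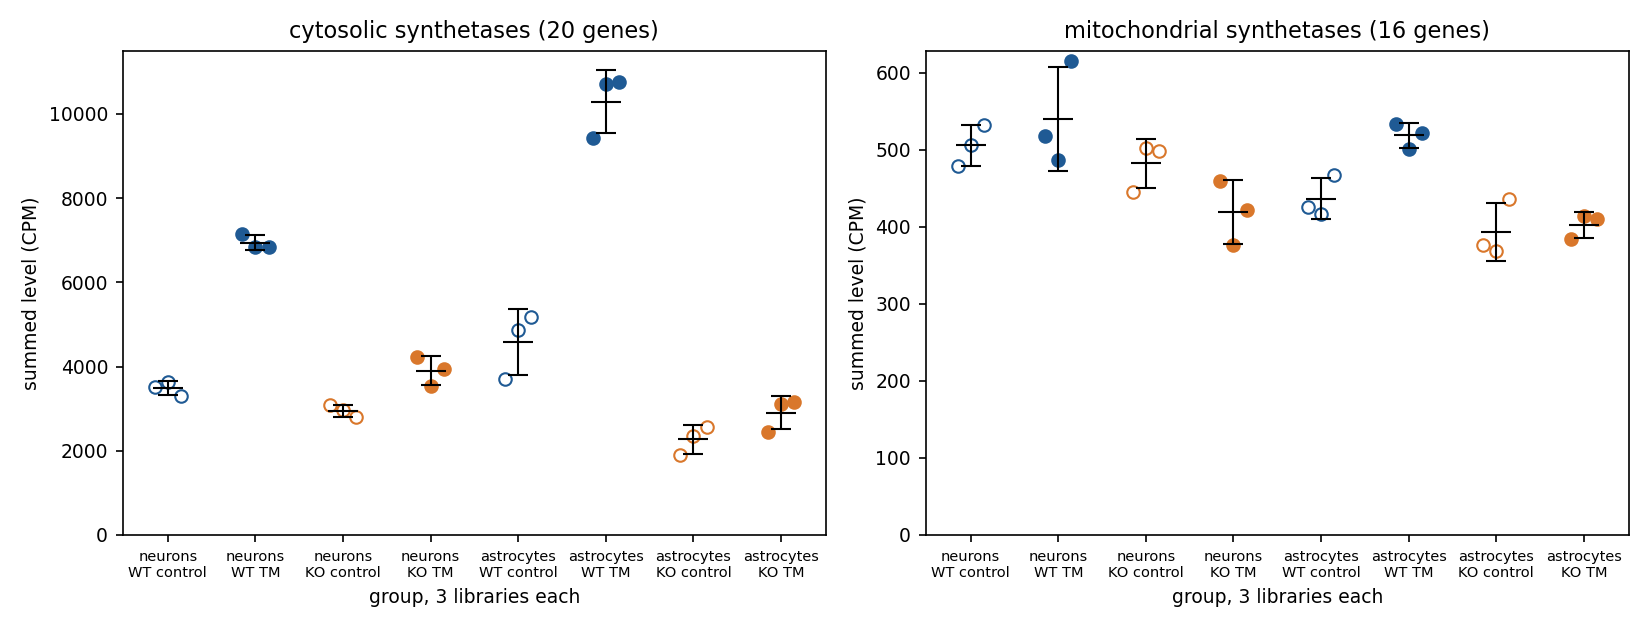
Summed level in CPM (y axes, from 0) of the 20 cytosolic (left) and 16 mitochondrial (right) synthetase genes in each of 3 libraries of 8 groups (x axes); open points are controls, filled points TM, blue WT, orange Perk KO, and black marks the mean ± SD. The cytosolic sum is highest in TM-treated WT astrocytes, at 9420 to 10746 CPM, while all mitochondrial sums lie between 368 and 616 CPM.

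Of the 20 cytosolic genes, 18 rose and 0 fell in WT neurons, and of the 16 mitochondrial genes 6 rose and 1 fell, where 51.8% of 15546 genes tested were called, 27.0% as rises and 24.8% as falls. The median log2 change was 1.20 for the cytosolic genes, 0.33 for the mitochondrial ones and 0.04 for all genes tested. Tars rose most, from 89.62, 94.03 and 83.92 CPM to 266, 255 and 255 CPM (log2 change 1.69 ± 0.08 SE, edgeR adjusted p = 1.1e-06). Iars, for isoleucine, went from 102, 105 and 107 to 278, 285 and 288 CPM (1.59 ± 0.07). The control and TM libraries of both genes were far apart. Wars, the tryptophan enzyme, went from 188, 204 and 176 to 473, 470 and 509 CPM (1.501 ± 0.083). Lars, for leucine, went from 95.1, 98.5 and 111 to 266, 265 and 243 CPM (1.49 ± 0.09). Cars, for cysteine, read 87.3, 88.6 and 86.3 CPM in controls and 223, 206 and 223 CPM after TM (1.47 ± 0.08). Eprs stood beside them: its control libraries had 222, 222 and 259 CPM and its TM libraries 598, 637 and 525 CPM (1.47 ± 0.10).

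Within the cytosolic set the response was graded. Aars, for alanine, with 487, 523 and 452 CPM before and 899, 831 and 861 CPM after, rose by a log2 of 0.97 ± 0.08, and Gars, with 293, 315 and 273 before and 647, 598 and 626 CPM after, by 1.24 ± 0.08. Kars rose less, from 122, 121 and 107 to 161, 154 and 151 CPM (0.56 ± 0.08). Farsb (0.59 ± 0.08), Mars, for methionine (0.45 ± 0.10), Dars (0.45 ± 0.16) and Qars, for glutamine (0.38 ± 0.09), made up the rest of the lower end. Farsa (0.20 ± 0.09, adjusted p = 0.10 in edgeR) and Hars (0.15 ± 0.09, adjusted p = 0.19) did not pass. The 2 subunits of the phenylalanine enzyme thus had values of 0.20 and 0.59; their difference was not tested. All 8 genes of the multisynthetase complex rose, with a median log2 change of 1.01, and 10 of the other 12, with a median of 1.20. The 5 genes whose promoter windows held the letters shown above had changes of 0.82 (Yars), 0.97 (Aars), 1.24 (Gars), 1.59 (Iars) and 1.69 (Tars). The 8 matched windows without them belonged to genes with changes from 0.20 (Farsa) to 1.47 (Eprs). Cars, Hars, Lars, Nars, Rars, Vars and Wars had no matched window, so whether theirs hold the letters is not known. Among them are Hars, with the lowest change, and Wars, Lars and Cars, which were among those that rose most. A link between the letters and the size of the change was not tested.

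In the mitochondrial set the moves of WT neurons were smaller and went both ways. Ears2, for glutamate, went from 12.33, 12.02 and 11.42 to 18.9, 20.4 and 17.6 CPM (0.82 ± 0.12, adjusted p = 0.00066 in edgeR). Nars2, for asparagine, went from 23.7, 20.3 and 16.2 to 33.8, 29.8 and 29.0 CPM (0.77 ± 0.15). Rars2, for arginine, went from 28.9, 26.9 and 34.5 to 38.1, 43.4 and 38.6 CPM (0.56 ± 0.12). In all 3 the TM libraries lay above every control. Cars2 (0.51 ± 0.13), Wars2 (0.50 ± 0.15) and Yars2 (0.42 ± 0.11) also rose. Aars2 fell by 0.95 ± 0.13 (adjusted p = 0.00037), from 26.7, 28.5 and 22.6 to 11.8, 12.1 and 12.6 CPM, while its cytosolic counterpart Aars rose. The other 9 did not pass. Lars2 had scattered libraries, 110, 153 and 188 CPM in controls and 161, 133 and 257 CPM after TM.

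The scale matters for the smaller of these changes. The CPM given here are on 1 scale for all 24 libraries, and the fits of 2 groups were scaled on their own 6 libraries; with the common scale the median change of all genes in WT neurons moved from 0.04 to -0.11, the share of calls that were rises went from 52.2% to 39.7%, 16 cytosolic genes rose and 0 fell, and 4 mitochondrial genes rose and 5 fell. The genes that lost the call were Dars, Qars, Wars2 and Yars2, and Iars2, Vars2, Mars2 and Sars2 became falls, with log2 changes of -0.30, -0.35, -0.50 and -0.60. Mars overlaps 68 bases of Ddit3, a stress gene on the other strand that rose by 4.45 ± 0.10 in these neurons; the kit keeps no strand information, and reads of such an overlap cannot be told apart, as for the 198 bases that Hars and Hars2 share. Markers moved too: the 12 astrocyte markers summed to 1066 to 1170 CPM in TM-treated WT neurons, 10 of the 11 tested fell, and the neuron markers summed to 3918 to 4113 CPM. Falls were called for 10 of 12 neuron, 8 of 9 oligodendrocyte lineage, 5 of 7 microglia and 5 of 10 fibroblast and mural markers. A rise was called for 1 oligodendrocyte lineage marker. The part of all these markers in the synthetase changes was not tested.

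In WT astrocytes TM raised most of the cytosolic set as well. Of the 20 cytosolic genes, 17 rose and 0 fell, and of the 16 mitochondrial genes 8 rose and 0 fell, where 52.7% of 14907 genes tested were called, 25.0% as rises and 27.7% as falls. Median log2 changes were 1.03, 0.39 and, over all genes, -0.01. The cytosolic sum went from 3703, 4869 and 5172 to 9420, 10702 and 10746 CPM, and replicate 1 was the lowest of both groups. Rars rose most, from 105, 156 and 183 to 424, 554 and 605 CPM (1.82 ± 0.22, edgeR adjusted p = 0.00038). Wars went from 213, 274 and 300 to 810, 808 and 794 CPM (1.60 ± 0.14), and Nars from 424, 611 and 672 to 1391, 1711 and 1700 CPM (1.48 ± 0.18). Gars (1.41 ± 0.16), Eprs (1.37 ± 0.14), Tars (1.25 ± 0.18), Lars (1.23 ± 0.14), Aars (0.77 ± 0.19) and Kars (0.72 ± 0.09) rose as well. The 3 that did not pass were Qars (0.22 ± 0.12), Mars (0.22 ± 0.13) and Dars (0.18 ± 0.09). Same-numbered astrocyte libraries deviated together, and with the replicate number as a block these 3 passed at adjusted p = 0.032, 0.017 and 0.045, where 65.7% of all genes were called.

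The mitochondrial rises of WT astrocytes were led by Nars2, from 14.9, 17.6 and 17.9 to 33.2, 37.2 and 32.0 CPM (1.01 ± 0.12, edgeR adjusted p = 0.00040). Ears2 went from 13.2, 24.0 and 27.1 to 32.3, 42.3 and 43.2 CPM (0.86 ± 0.25), and Rars2 from 28.9, 28.8 and 32.4 to 60.6, 50.3 and 51.4 CPM (0.83 ± 0.12). None of the TM libraries of these 3 genes overlapped a control. The other 5 that rose were Yars2 (0.64 ± 0.19), Cars2 (0.58 ± 0.17), Wars2 (0.55 ± 0.15), Mars2 (0.52 ± 0.13) and Tars2 (0.44 ± 0.10). Mars2 lost the call with the GC correction (0.30, adjusted p = 0.11 in edgeR). Without TM-treated WT astrocyte replicate 2 the count was 5. With the replicate block Lars2 (-0.40, adjusted p = 0.0020) and Fars2 (-0.28, adjusted p = 0.030) were also called, as falls. All 6 of the mitochondrial genes that rose in WT neurons rose in WT astrocytes, as did 15 of the 18 cytosolic ones. Over all genes tested, 27.0% rose in WT neurons and 25.0% in WT astrocytes. The share that rose in both was not counted. Astrocyte markers summed to 687 to 778 CPM after TM, against 2519 to 3836 CPM before, and 9 of the 11 tested fell. Falls were also called for 7 of 8 microglia, 5 of 8 neuron and 4 of 6 oligodendrocyte lineage markers. The same held for 4 of 9 fibroblast and mural markers, while 2 neuron markers rose. The part of all these markers was not tested.

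**Figure D2:**
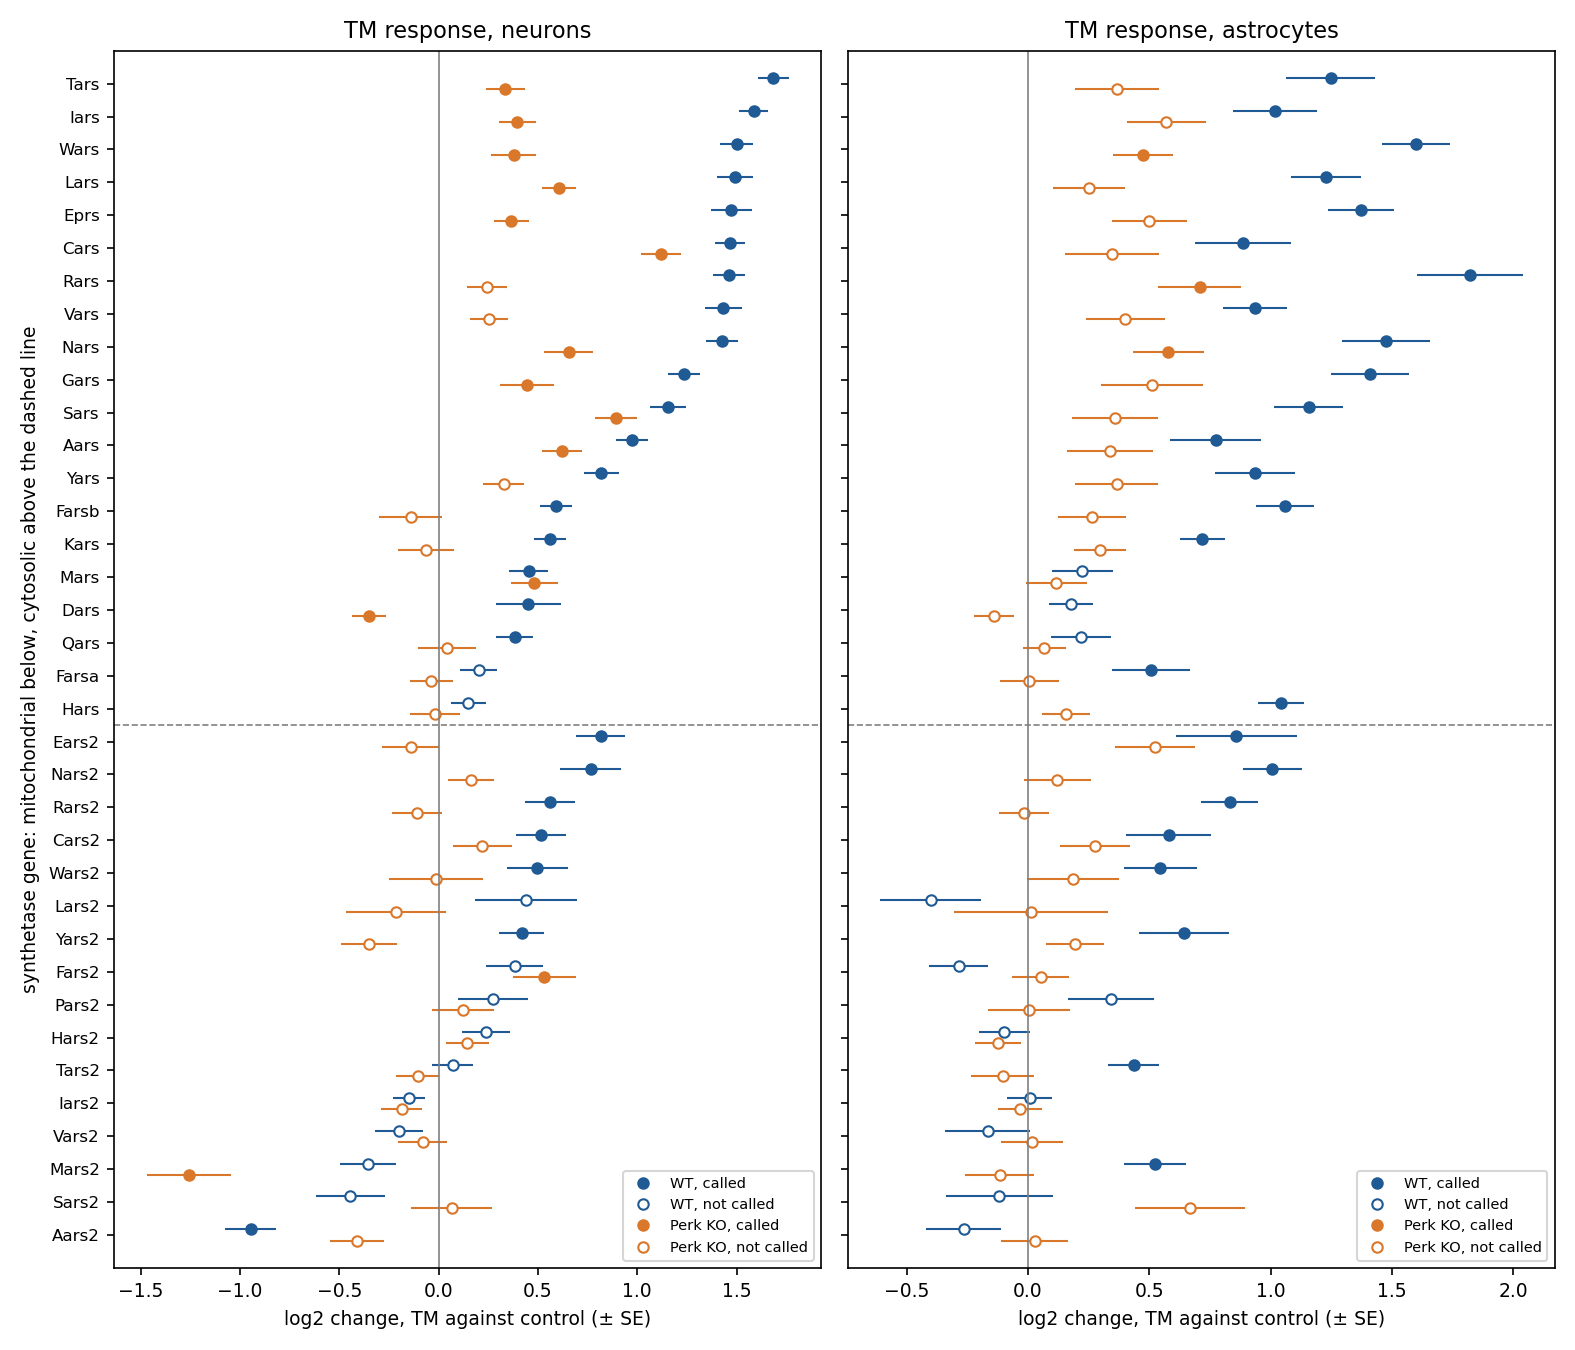
Log2 change with TM (x axes, ± SE) of each synthetase gene (y axes) in neurons (left) and astrocytes (right); blue WT, orange Perk KO, filled where called at an adjusted p under 0.05 and open where not, with cytosolic genes above and mitochondrial genes below the dashed line. The WT values of 18 cytosolic genes in neurons and 17 in astrocytes are called, and most KO values lie nearer to 0.

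The difference between the cell types in the TM response was tested directly in WT cells. Of 20 cytosolic genes 2, and of 16 mitochondrial genes 3, had a smaller change in neurons than in astrocytes and 0 a larger one, where 24.9% of 15712 genes tested were called, 12.5% lower and 12.4% higher. Hars was at 193, 191 and 163 CPM in control neurons and 188, 174 and 184 CPM after TM, with overlap, and at 94.8, 106 and 109 against 213, 218 and 213 CPM in astrocytes, where it rose by 1.04 ± 0.10; the difference, neurons minus astrocytes, was -1.07 ± 0.13 (edgeR adjusted p = 0.00020). Farsb, with a difference of -0.64 ± 0.15, went from 117, 126 and 114 to 169, 164 and 153 CPM in neurons and from 94.3, 113 and 120 to 212, 233 and 246 CPM in astrocytes. Mars2, for methionine in mitochondria, had 20.3, 18.7 and 24.8 CPM in control neurons and 14.6, 15.8 and 14.6 CPM after TM, but 16.2, 17.5 and 15.6 against 21.0, 24.9 and 25.8 CPM in astrocytes (difference -1.05 ± 0.19). Tars2, for threonine, read 36.4, 36.3 and 32.0 before and 34.2, 31.5 and 33.4 CPM after TM in neurons, and 32.3, 33.9 and 36.5 before and 46.3, 43.7 and 50.7 CPM after in astrocytes (-0.54 ± 0.15). Aars2 (-0.86 ± 0.19), which fell in neurons, was the other one. Leaving out control WT astrocyte replicate 1 or 3 or TM-treated WT astrocyte replicate 1 gave 5, 4 and 4 cytosolic genes.

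Without Perk the cytosolic rise was smaller in neurons. The cytosolic sum was 3079, 2978 and 2798 CPM in control Perk KO neurons and 4219, 3538 and 3932 CPM after TM, above the controls but far below the WT level after TM. Of the 20 cytosolic genes 11 rose and 1 fell, and of the 16 mitochondrial genes 1 rose and 1 fell, where 23.8% of 16197 genes tested were called, 13.1% as rises and 10.8% as falls. Median log2 changes were 0.35, -0.09 and, for all genes, 0.02. Cars (1.12 ± 0.10), Sars (0.89 ± 0.11), Nars (0.66 ± 0.12), Aars (0.62 ± 0.10) and Lars (0.61 ± 0.09) rose most. Dars fell by 0.35 ± 0.08, from 118, 119 and 117 to 85.5, 94.7 and 87.9 CPM, and Mars2 fell by 1.26 ± 0.21, from 26.8, 27.8 and 32.5 to 8.33, 15.5 and 11.5 CPM. Corrected for transcript GC content, the fall of Dars was 0.08 and did not pass (adjusted p = 0.69). Wars lost its call with this correction, at 0.25 from 0.38. Fars2 (0.53 ± 0.16) was the mitochondrial gene that rose. Under the common scale of all libraries Fars2 (0.48), Wars, Tars and Gars lost the call, and Aars2 (-0.46) became a fall. The share of calls over all genes that were rises then went from 54.8% to 47.0%. Neuron markers fell for 9 of 12 with TM in these cultures, from 6481 to 6997 CPM in sum to 4220 to 4784 CPM, and microglia markers for 5 of 9; their part was not tested. The cytosolic count of 12 was 5 or 6 without control Perk KO replicate 1, 2 or 3 or TM-treated Perk KO replicate 3. The mitochondrial count of 2 was 1 without any of these or TM-treated replicate 1. Calls over all genes went from 3858 to between 1972 and 2109 where the cytosolic count was 5 or 6.

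That the TM response of neurons was smaller in KO than in WT was tested as an interaction. It was lower for 15 of the 20 cytosolic genes and higher for 0, and among the mitochondrial genes lower for 5 and higher for 1, where 29.8% of 15939 genes tested were called, 15.4% lower and 14.5% higher. Tars went from 82.3, 88.9 and 80.6 to 109, 94.8 and 103 CPM in KO (KO minus WT change -1.38 ± 0.11, edgeR adjusted p = 6.4e-06). Rars went from 77.1, 80.7 and 71.3 to 94.3, 82.1 and 85.2 CPM, after 87.0, 85.4 and 85.1 to 225, 217 and 197 CPM in WT (-1.25 ± 0.12). Iars went from 94.9, 98.0 and 92.2 to 130, 120 and 112 CPM (-1.22 ± 0.10). Every TM-treated KO library of these 3 genes lay below every TM-treated WT one. For Cars (-0.38 ± 0.11), Aars (-0.39 ± 0.12) and Yars (-0.53 ± 0.13) the difference was the least among those called. It did not pass for Sars (-0.30 ± 0.13), Qars (-0.37 ± 0.17), Farsa (-0.27 ± 0.13), Hars (-0.20 ± 0.15) or Mars (-0.01 ± 0.15). With the GC correction Dars lost the call, at -0.30 (adjusted p = 0.13 in edgeR) from -0.83. Astrocyte markers had a higher term for 10 of the 11 tested and a lower one for 0. The term was also higher for 6 of 9 oligodendrocyte lineage, 5 of 12 neuron and 2 of 8 microglia markers. The same held for 2 of 10 fibroblast and mural markers. It was lower for 1 oligodendrocyte lineage and 1 neuron marker. The part of all these markers was not tested.

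Among the mitochondrial genes of neurons, Ears2 had 10.67, 9.66 and 10.95 CPM in KO controls and 8.41, 9.84 and 9.18 CPM after TM, with overlap (difference from the WT change -0.99 ± 0.16). Yars2, for tyrosine, went from 22.6, 19.3 and 21.1 to 15.4, 14.0 and 18.1 CPM in KO and from 21.9, 23.0 and 20.9 to 28.8, 25.3 and 25.3 CPM in WT (-0.80 ± 0.17). Mars2 (-0.93 ± 0.27), Rars2 (-0.70 ± 0.18) and Nars2 (-0.64 ± 0.19) were the other 3 with a lower response. Aars2, the one gene of the set with a positive difference (0.50 ± 0.17, adjusted p = 0.043 in edgeR), went in KO from 20.4, 18.9 and 16.9 to 12.1, 14.1 and 14.5 CPM, a smaller fall than in WT. On the common scale of all libraries the counts were 13 and 5, Aars, Cars and Nars2 being lost, while over all genes the share of calls that were higher went from 48.5% to 63.5%. With the GC correction Mars2 (-0.39) and Nars2 (-0.41) lost the call. Without control Perk KO replicate 3 the mitochondrial count was 3.

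In astrocytes without Perk little of the response was called. The cytosolic sum was 1900, 2350 and 2562 CPM in controls and 2451, 3112 and 3155 CPM after TM, where each library rose above the control of its own number but the groups overlapped. Of the 20 cytosolic genes 3 rose and 0 fell, where 10.1% of 15164 genes tested were called, 5.55% as rises and 4.6% as falls; they were Rars (0.71 ± 0.17), Nars (0.58 ± 0.15) and Wars (0.47 ± 0.12). Of the 16 mitochondrial genes 0 were called in edgeR and 0 in DESeq2, and 2 had an unadjusted p under 0.05. The median log2 changes were 0.35, 0.02 and, for all genes, 0.00. With the replicate number as a block, 15 cytosolic genes rose and 0 fell, and 2 mitochondrial genes rose, where 28.3% of all genes were called: Iars (0.58, adjusted p = 1.4e-05), Gars (0.51, adjusted p = 2.2e-05) and Eprs (0.51, adjusted p = 3.0e-05) led those gained, and the mitochondrial ones were Sars2 (0.68) and Ears2 (0.52). The count of 3 was 0 without control replicate 1 or 2 or TM-treated replicate 2 or 3, and 5 without TM-treated replicate 1. Calls over all genes went from 1539 to between 807 and 1184 where the count was 0, and to 1251 without TM-treated replicate 1.

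The interaction in astrocytes was lower for 12 of 20 cytosolic and 4 of 16 mitochondrial genes and higher for 0, where 34.4% of 15114 genes tested were called, 14.6% lower and 19.8% higher. Wars, which rose to 810, 808 and 794 CPM in WT, went from 127, 141 and 144 to 158, 200 and 215 CPM in KO (-1.14 ± 0.19, edgeR adjusted p = 0.00092). Rars (-1.13 ± 0.31), Lars (-0.99 ± 0.23), Nars (-0.91 ± 0.26), Gars (-0.91 ± 0.30), Tars (-0.90 ± 0.28) and Hars (-0.90 ± 0.13) followed. The 4 mitochondrial genes were Nars2 (-0.90 ± 0.17), Rars2 (-0.86 ± 0.14), Mars2 (-0.66 ± 0.18) and Tars2 (-0.56 ± 0.17). Of the cytosolic and mitochondrial calls together, the GC correction lost 3 and kept 13. Calls over all genes went from 5203 to 5395 with it. Using no filter on low counts lost 2 and kept 14 of the synthetase calls. With the replicate block, Aars, Cars, Farsa, Iars, Vars and Yars were added on the cytosolic side, with differences from -0.45 (Aars) to -0.60 (Yars), and Yars2 (-0.46) and, as the one higher, Sars2 (0.76) on the mitochondrial side, where 49.3% of all genes were called. Astrocyte markers had a higher term for 6 of the 11 tested and a lower one for 0. The term was also higher for 4 of 7 oligodendrocyte lineage, 3 of 9 fibroblast and mural and 1 of 9 microglia markers. Of 7 neuron markers 1 had a higher and 1 a lower term. The part of all these markers was not tested. Without control WT replicate 1, TM-treated WT replicate 3 or control KO replicate 3 the cytosolic count was 7. Between the cell types this interaction differed for 1 gene, Hars (neurons minus astrocytes 0.83 ± 0.21, adjusted p = 0.020), where 5.51% of 15924 genes tested were called, 2.08% higher and 3.43% lower; Hars lost the call without control WT neuron replicate 1 or 2, TM-treated KO neuron replicate 1 or control KO astrocyte replicate 2.

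**Figure D3:**
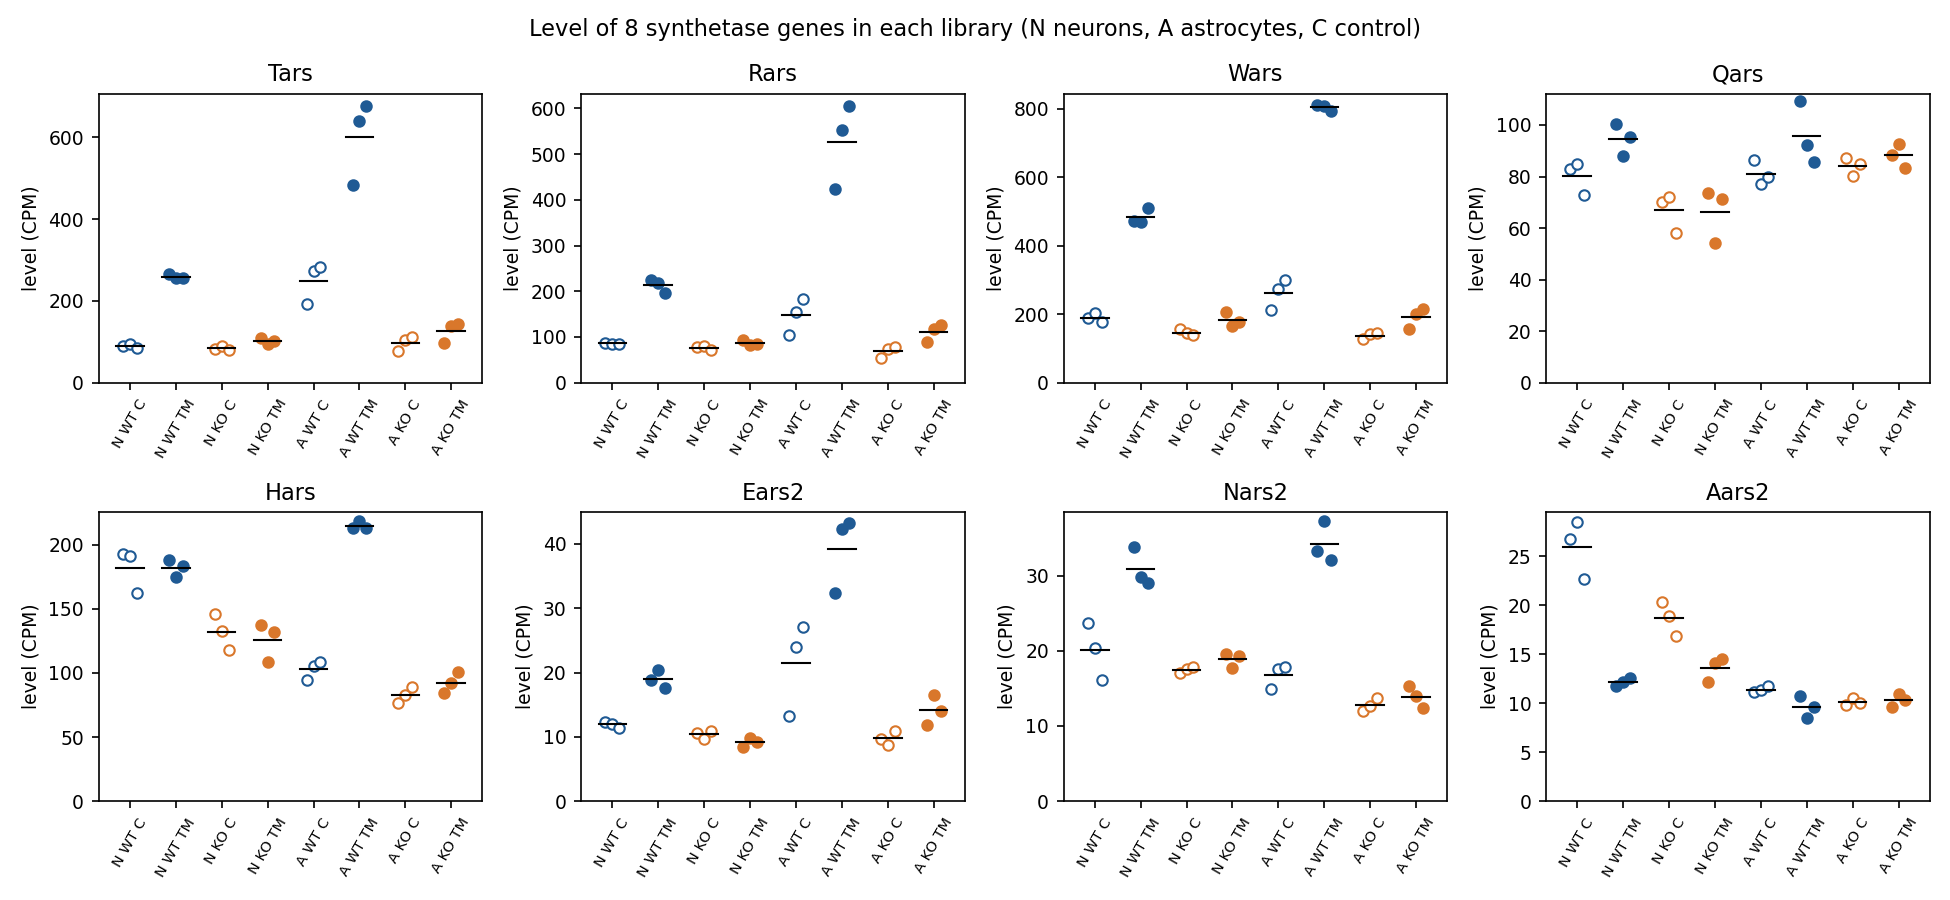
Level in CPM (y axes, from 0) of 8 synthetase genes in each library (points; line, mean of 3) by group (x axes: N neurons, A astrocytes, C control), open for controls, filled for TM, blue WT, orange Perk KO. Tars, Rars and Wars rise in WT and less in KO, Qars stays between 54.4 and 109 CPM in every library, Hars is raised by TM in WT astrocytes, and Aars2 is highest in control WT neurons.

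Cytosolic synthetases were also lower in Perk KO astrocytes that had received no TM. The sums were 1900, 2350 and 2562 CPM in control KO against 3703, 4869 and 5172 CPM in control WT astrocytes, without overlap, while the mitochondrial sums were 376, 368 and 437 against 426, 417 and 467 CPM, with overlap. Of the 20 cytosolic genes 17 were lower and 0 higher, and of the 16 mitochondrial genes 2 were lower and 0 higher, where 14.9% of 15196 genes tested were called, 10.2% lower and 4.71% higher. The median log2 difference was -1.06 for the cytosolic genes, -0.14 for the mitochondrial ones and 0.03 for all genes. Iars was at 57.9, 86.2 and 83.5 CPM in KO and 162, 239 and 234 CPM in WT (-1.48 ± 0.20, edgeR adjusted p = 0.0099). Cars was at 39.7, 53.2 and 62.7 against 98.5, 146 and 162 CPM (-1.39 ± 0.22). Tars was at 77.2, 105 and 111 against 192, 273 and 284 CPM (-1.36 ± 0.19). In all 3 genes the highest KO library was below the lowest WT library.

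Nars (-1.33 ± 0.19), Gars (-1.29 ± 0.21), Yars (-1.28 ± 0.19), Eprs (-1.25 ± 0.17), Aars (-1.21 ± 0.20) and Vars (-1.17 ± 0.16) were lower by similar amounts, and Kars (-0.51 ± 0.11) by the least among those called. Qars, with 87.2, 80.1 and 84.9 CPM in KO and 86.4, 77.1 and 79.9 CPM in WT, differed by 0.05 ± 0.09 and did not pass, nor did Dars (-0.15 ± 0.08) or Hars (-0.32 ± 0.10); Hars passed with the replicate block (adjusted p = 0.0069). The 2 mitochondrial genes were Ears2, with 9.74, 8.77 and 10.9 CPM in KO and 13.2, 24.0 and 27.1 CPM in WT (-1.13 ± 0.26), and Yars2 (-0.61 ± 0.16); the block added Nars2 (-0.40) as lower and Cars2 (0.34) as higher, where 37.7% of all genes were called. These calls rest on few libraries: without control WT astrocyte replicate 2 no synthetase was called, and 50 genes in all against 2260, while the cytosolic median stayed at -1.01. Without control KO replicate 2 the cytosolic count was 10, and the mitochondrial count was 0 without any library but control WT replicate 1. Astrocyte markers summed to 3513 to 4576 CPM in control KO and 2519 to 3836 CPM in control WT astrocytes, and 4 of the 11 tested were higher in KO and 0 lower; their part was not tested.

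In control neurons the genotype difference was much smaller. The cytosolic sums, 3079, 2978 and 2798 CPM in KO and 3507, 3630 and 3309 CPM in WT, did not overlap, but of the 20 genes 7 were lower and 1 higher, and of the 16 mitochondrial genes 2 were lower and 1 higher, where 21.4% of 15757 genes tested were called, 9.16% lower and 12.2% higher. The median log2 differences were -0.19 and -0.14, and -0.01 for all genes. Hars (-0.43 ± 0.11), Sars (-0.43 ± 0.09), Wars (-0.34 ± 0.09), Gars (-0.34 ± 0.08), Farsa (-0.33 ± 0.10), Aars (-0.29 ± 0.08) and Nars (-0.28 ± 0.08) were lower, and Dars (0.64 ± 0.14) higher. Aars2 (-0.44 ± 0.13) and Tars2 (-0.37 ± 0.10) were the mitochondrial genes that were lower and Mars2 (0.48 ± 0.14) the one higher. With the GC correction 2 cytosolic and 1 mitochondrial gene were called, all lower, where 2990 of 15757 genes were called. Dars (-0.04) and Mars2 (-0.40) turned in sign, while Hars and Sars kept the call. The replicate block alone kept all 11 calls of this comparison. With block and GC correction together 7 kept direction and call, 2 turned in sign and 2 lost the call, where 4749 genes were called. Astrocyte markers summed to 4566 to 4747 CPM in KO and 3554 to 3854 CPM in WT, with 4 of 11 higher, and neuron markers to 6481 to 6997 against 7854 to 8202 CPM, with 6 of 12 lower. Of the other marker lists, 6 of 10 fibroblast and mural markers were higher and 1 lower, 3 of 8 microglia markers were higher, and 4 of 10 oligodendrocyte lineage markers were lower and 1 higher; their part was not tested. Leaving out control WT replicate 1 or control KO replicate 2 or 3 left 0 cytosolic genes, control WT replicate 2 left 1 and control KO replicate 1 left 3. The mitochondrial count was 0 without each of these 5 and 5 without control WT replicate 3. Calls over all genes moved as well, from 3370 to 695 without control WT replicate 1. They were 589 and 257 without control KO replicates 2 and 3, and 5414 without control WT replicate 3.

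Whether the untreated genotype difference was of unlike size in the 2 cell types was tested on the 12 control libraries, a comparison added after the data had been seen. The log2 difference, neurons minus astrocytes, was positive and called for 15 of 20 cytosolic genes and for 1 of 16 mitochondrial genes, and negative for 0, where 20.3% of 15938 genes tested were called, 11.9% higher and 8.43% lower. The medians were 0.89 and -0.07, and -0.02 over all genes. Eprs differed most: KO and WT had 268, 245, 245 and 222, 222, 259 CPM in control neurons, with overlap, but 167, 244, 226 and 417, 551, 540 CPM in control astrocytes (1.35 ± 0.20, edgeR adjusted p = 0.0027). Iars (1.33 ± 0.22), Tars (1.26 ± 0.21), Cars (1.19 ± 0.25) and Yars (1.06 ± 0.22) came next. Ears2 was the mitochondrial gene (0.93 ± 0.30, adjusted p = 0.046); it lost the call with DESeq2's size factors (adjusted p = 0.053), and the count was 0 without each of 10 of the 12 libraries and 2 without control WT astrocyte replicate 1. The cytosolic genes that did not pass were Farsa (0.27 ± 0.19), Hars (-0.15 ± 0.15), Kars (0.31 ± 0.14), Qars (-0.32 ± 0.15) and Sars (0.31 ± 0.22). With the replicate number as a block, which pairs these libraries, 3 mitochondrial genes were called, Yars2 (0.53) and Mars2 (0.55) being added. It also added Kars (0.32) and Sars (0.32) as higher and Qars (-0.33) as lower among the cytosolic genes, with 33.9% of all genes called. Dars (0.75) stood apart from the other called genes, since it was higher in KO neurons (0.64) and did not pass in astrocytes (-0.15), and its term was 0.06 with the GC correction.

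**Figure D4:**
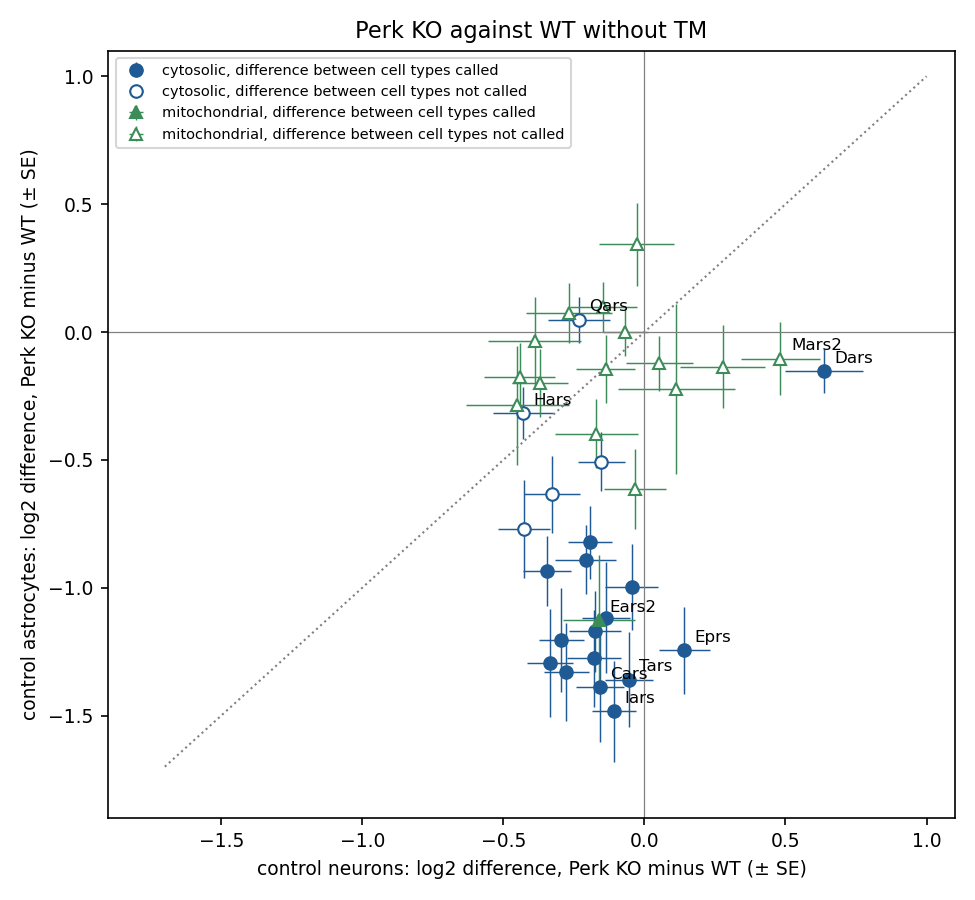
Log2 difference of Perk KO from WT without TM in neurons (x axis) and astrocytes (y axis), ± SE, for each synthetase gene; circles cytosolic, triangles mitochondrial, filled where the difference between the cell types was called, and the dotted line marks equal differences. The 15 filled circles lie below the line, Dars among them with a positive value in neurons, and most triangles lie near the crossing of the zero lines.

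After TM the genotypes were farthest apart. In neurons 18 of 20 cytosolic genes were lower in KO and 0 higher, and 6 of 16 mitochondrial genes lower and 0 higher, where 40.1% of 16026 genes tested were called, 19.4% lower and 20.7% higher; the medians were -0.81, -0.34 and 0.02 for all genes. Wars was at 207, 164 and 178 CPM in KO against 473, 470 and 509 CPM in WT (-1.43 ± 0.12), Tars differed by -1.37 ± 0.10, and Rars and Vars by -1.32 ± 0.11 and -1.32 ± 0.10. Dars (-0.13 ± 0.12) and Mars (-0.14 ± 0.12) did not pass. Ears2 (-1.08 ± 0.14), Yars2 (-0.77 ± 0.15), Nars2 (-0.74 ± 0.13), Rars2 (-0.58 ± 0.13), Tars2 (-0.51 ± 0.11) and Pars2 (-0.50 ± 0.17) were the mitochondrial genes. Astrocyte markers were at 3625 to 4760 CPM in these KO cultures and 1066 to 1170 CPM in WT ones. Of these markers, 12 of 12 were higher in KO. Also higher were 5 of 6 microglia, 6 of 10 fibroblast and mural, 5 of 8 oligodendrocyte lineage and 1 of 12 neuron markers. Lower were 1 oligodendrocyte lineage and 2 neuron markers. The part of all these markers was not tested.

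In astrocytes 19 of 20 cytosolic genes were lower in KO after TM and 0 higher, and of the mitochondrial genes 7 were lower and 1 higher, where 63.3% of 14927 genes tested were called, 31.2% lower and 32.1% higher. The medians were -1.77 and -0.19, and 0.01 for all genes. Tars was at 96.6, 138 and 142 CPM in KO and at 484, 639 and 677 CPM in WT (-2.23 ± 0.19, edgeR adjusted p = 2.8e-05). Nars (-2.22 ± 0.15), Rars (-2.22 ± 0.18), Gars (-2.18 ± 0.18), Eprs (-2.11 ± 0.13) and Wars (-2.05 ± 0.13) differed by as much. Qars was the exception, with 88.4, 92.7 and 83.4 CPM in KO and 109, 92.1 and 85.6 CPM in WT (-0.09 ± 0.12). Ears2 (-1.45 ± 0.17), Nars2 (-1.27 ± 0.13), Yars2 (-1.06 ± 0.17), Rars2 (-0.96 ± 0.12), Tars2 (-0.73 ± 0.11), Mars2 (-0.73 ± 0.13) and Wars2 (-0.48 ± 0.18) were lower and Fars2, for phenylalanine, higher (0.42 ± 0.12). In 15 of the 20 cytosolic and 5 of the 16 mitochondrial genes all 3 TM-treated KO astrocyte libraries lay below all 3 WT libraries that had received no TM, as in 21.4% of 15198 genes. In neurons 3 cytosolic and 7 mitochondrial genes lay below in this way, where 27.1% of 15970 genes did, and 7 cytosolic genes and 1 mitochondrial gene lay above, where 21.9% did. Astrocyte markers were at 2242 to 2899 CPM in KO and 687 to 778 CPM in WT, and 10 of 11 tested were higher in KO. Also higher were 5 of 8 oligodendrocyte lineage, 4 of 7 neuron, 3 of 9 fibroblast and mural and 1 of 6 microglia markers. Lower were 2 neuron markers. The part of all these markers was not tested.

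**Figure D5:**
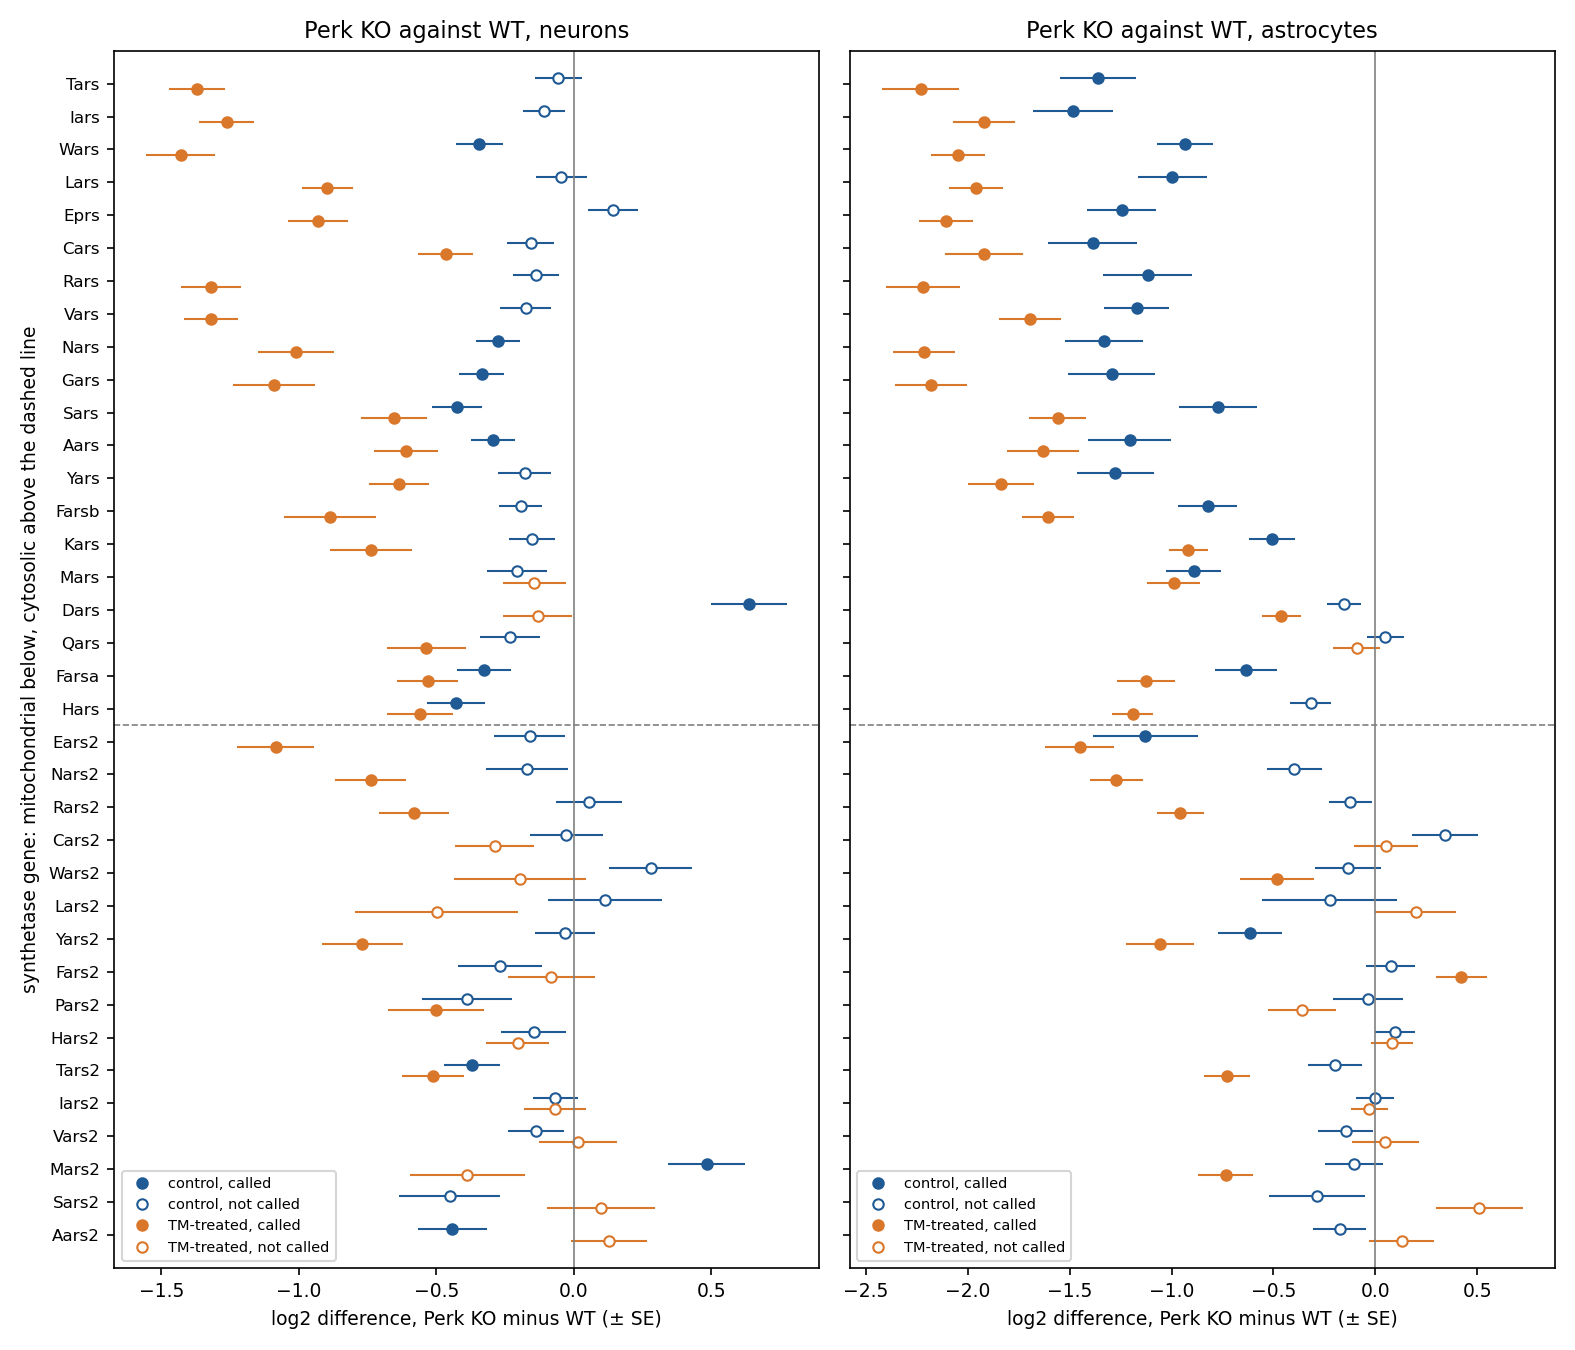
Log2 difference of Perk KO from WT (x axes, ± SE) of each synthetase gene (y axes) in neurons (left) and astrocytes (right); blue control, orange TM-treated, filled where called at an adjusted p under 0.05, cytosolic genes above and mitochondrial genes below the dashed line. In astrocytes 17 cytosolic genes are called lower already in controls, and in neurons 7.

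The comparisons above share groups of libraries: each control group enters both a TM response and a genotype difference, so these values are not independent of one another. Across them a few mitochondrial genes had values of the same sign as most cytosolic ones. Nars2, Rars2, Yars2 and Ears2 rose with TM in WT neurons and WT astrocytes and were lower in KO after TM in both cell types, and 5 mitochondrial genes in all, Tars2 included, were lower in KO after TM in both. Hars2, Iars2, Lars2, Sars2 and Vars2 passed no test of treatment or genotype under the scaling of each fit's own libraries without the replicate block. On the common scale Iars2, Sars2 and Vars2 were falls in TM-treated WT neurons. With the block Lars2 and Sars2 passed in astrocytes. Aars2, which fell with TM in WT neurons, read 11.1, 11.3 and 11.7 CPM in control WT astrocytes and 10.7, 8.51 and 9.59 CPM after TM, and did not pass there (-0.26 ± 0.15). Of the cytosolic genes, 17 were lower in KO after TM in both cell types, the exceptions being Dars, Mars and Qars. Over all genes tested, 19.4% were lower in KO after TM in neurons and 31.2% in astrocytes. The share lower in both was not counted.

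Partners of the synthetases moved less uniformly. Of 13 tested genes for partners and tRNA handling, 4 rose and 1 fell with TM in WT neurons and 7 rose and 3 fell in WT astrocytes. Over all genes, 51.8% were called in WT neurons, 27.0% as rises and 24.8% as falls. In WT astrocytes 52.7% were called, 25.0% as rises and 27.7% as falls. The partners' share called was below this background in WT neurons and above it in WT astrocytes. Xpot, which exports tRNAs from the nucleus, went from 148, 152 and 161 to 385, 376 and 395 CPM in WT neurons (1.48 ± 0.07) and from 160, 151 and 145 to 230, 228 and 225 CPM in KO neurons (0.64 ± 0.08); in control astrocytes it was lower in KO (-0.68 ± 0.11). Aimp1, a scaffold of the multisynthetase complex, rose by 1.42 ± 0.10 in WT neurons and 1.07 ± 0.13 in WT astrocytes. Eef1e1, another scaffold, rose in WT astrocytes (0.95 ± 0.15), had 52.4, 53.0 and 45.9 CPM before and 50.6, 51.7 and 51.7 CPM after TM in WT neurons, and fell by 0.68 ± 0.13 in KO neurons. Tarsl2, a threonyl-tRNA synthetase-like gene, fell by 1.37 ± 0.17 in WT astrocytes. Trnt1, which adds the CCA end to tRNAs, rose in WT neurons (0.78 ± 0.25) and WT astrocytes (1.12 ± 0.15).

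The eIF2 reference genes were read in the same libraries. Atf4 itself was at 253, 242 and 267 CPM in control WT neurons and 727, 661 and 710 CPM after TM (1.61 ± 0.08), and at 230, 207 and 196 and then 407, 349 and 434 CPM in KO neurons (0.96 ± 0.12). In control astrocytes Atf4 had 90.7, 136 and 155 CPM in KO against 241, 350 and 405 CPM in WT (-1.38 ± 0.24, edgeR adjusted p = 0.013), and in control neurons it did not pass. Asns, the asparagine synthetase of amino acid supply, was lower in control KO astrocytes by 1.85 ± 0.31 on the log2 scale and in control KO neurons by 0.31 ± 0.09. Trib3 and Chac1, stress targets downstream of ATF4, were lower in control KO astrocytes (-2.60 ± 0.36 and -2.59 ± 0.38), and both were lower in control WT neurons than in control WT astrocytes (-3.89 ± 0.18 and -2.39 ± 0.22). Of the 7 reference genes, 3 were lower and 2 higher in control WT neurons than in control WT astrocytes. The shares over all genes tested were 35.2% lower and 35.8% higher. Within each of the 4 astrocyte groups, replicate 1 had the lowest cytosolic sum and the lowest Atf4. That Atf4 was at 241, 1115, 90.7 and 174 CPM. Same-numbered astrocyte libraries deviated together, so these 4 groups are not independent matches. In neurons the lowest sum and the lowest Atf4 fell in the same library in control KO and in both TM groups. In control WT neurons replicate 3 had the lowest sum, 3309 CPM, and the highest Atf4, 267 CPM. A link between the 2 was not tested.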

How the data were processed

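RNA-seq counts per gene of 24 libraries were used. The submitters' processing notes name fastp, HISAT2, featureCounts, DESeq2 and the build GRCm38.p6; tool versions and the annotation release are not given in the sources used here. Raw counts and gene lengths in bases were deposited by the authors in 8 tables; per the file headers each library is in 2 of them, and 0 counts differed. The deposited fold changes and FPKM were not used.

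Counts were tested with edgeR 4.0.16 (R 4.3.3) by the quasi-likelihood F test with TMM scaling, on genes averaging 10 counts or more across a fit's libraries: 6 for 2 groups, 12 or 24 for interactions. The SE is the log2 change divided by the square root of F. CPM and RPKM used TMM over 24 libraries. Scripts were tested on simulated data. Same-numbered libraries correlated in their deviations from group means in astrocytes (0.257 to 0.598), between control neuron genotypes (0.152 to 0.331) and between TM-treated ones (0.182 to 0.456), but not over other neuron pairs (from -0.504), so a replicate block was read for the former. Alternatives were no filter, DESeq2 size factors, DESeq2 1.42.0, the block, GC correction over 20 bins, both, and leaving out each library; TMM over all libraries and the untreated cell type by genotype term were added after the data were seen. Per-library values were given for the genes with the largest called changes (6 cytosolic and 4 mitochondrial in WT neurons, up to 3 of each class in the neuron interaction, WT astrocytes and the cell type by TM term) and for Aars, Eprs, Gars, Kars, Qars and Wars; other genes named, and their per-library values, were chosen after their values were seen. Members and lists were chosen with earlier results of these data known. Counts cover PCR reads without molecular identifiers.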

Additional observations from a re-analysis of the deposited data

Results flagged for a closer look

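A difference between groups, tested directly, marked each result given here. In neurons the TM response differed between Perk KO and WT, by the interaction term of edgeR, in these genes, with the log2 change in KO minus that in WT: the cytosolic genes Tars (-1.38), Rars (-1.25), Iars (-1.22), Vars (-1.21), Wars (-1.16), Eprs (-1.14), Lars (-0.92), Dars (-0.83), Gars (-0.83), Nars (-0.80), Farsb (-0.77), Kars (-0.66), Yars (-0.53), Aars (-0.39) and Cars (-0.38) and the mitochondrial genes Ears2 (-0.99), Mars2 (-0.93), Yars2 (-0.80), Rars2 (-0.70), Nars2 (-0.64) and Aars2 (0.50). In astrocytes the same term passed, with KO minus WT values of the cytosolic genes Wars (-1.14), Rars (-1.13), Lars (-0.99), Nars (-0.91), Gars (-0.91), Hars (-0.90), Tars (-0.90), Eprs (-0.89), Sars (-0.81), Farsb (-0.81), Kars (-0.44) and Dars (-0.34) and the mitochondrial genes Nars2 (-0.90), Rars2 (-0.86), Mars2 (-0.66) and Tars2 (-0.56). Between WT neurons and WT astrocytes the TM response differed, as neurons minus astrocytes, in the cytosolic genes Hars (-1.07) and Farsb (-0.64) and the mitochondrial genes Mars2 (-1.05), Aars2 (-0.86) and Tars2 (-0.54). The genotype's effect on the TM response differed between neurons and astrocytes in Hars (0.83). Without TM, the difference of Perk KO from WT was unlike in neurons and astrocytes, as neurons minus astrocytes, in the cytosolic genes Eprs (1.35), Iars (1.33), Tars (1.26), Cars (1.19), Yars (1.06), Nars (1.01), Vars (0.96), Rars (0.94), Gars (0.92), Lars (0.91), Aars (0.87), Dars (0.75), Mars (0.64), Farsb (0.59) and Wars (0.55) and the mitochondrial gene Ears2 (0.93). Each library of a comparison was left out in turn, with the results given below, and no separate test for outlying libraries was made.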

How the results depend on the processing

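Counts of called genes are given as cytosolic, then mitochondrial. With the GC correction 2 and 1 genes differed between genotypes in control neurons, where Dars turned to -0.0396 (adjusted p = 0.758; -0.0405 with the replicate block as well) and Mars2 to -0.40 (-0.40 with the block); the cause was not tested. The TM response of Perk KO astrocytes had 5 cytosolic genes with no filter, 5 with DESeq2, 15 and 2 with the replicate block, 1 mitochondrial gene with the GC correction, and 16 and 2 with both. Control astrocyte genotypes differed in 4 mitochondrial genes with the block and 4 with both. The cell type by TM term gave 1 cytosolic gene with no filter, 7 and 5 with the block, 8 and 5 with both, and 5 mitochondrial genes with DESeq2. Over the 2 classes together, no filter lost 3 of the 5 calls of the cell type by TM term and kept 2. The term for cell type, genotype and TM gave 0 cytosolic genes with no filter, 3 with the block and 3 with both. The untreated cell type by genotype term gave 0 mitochondrial genes with DESeq2's size factors, 3 with the block and 2 with both. Neuron libraries shared only a number except between genotypes of 1 treatment, so the block was not read for their TM responses or terms with TM; there it removed Dars in WT, Tars and Gars in KO, and Aars2 (adjusted p = 0.051) from the interaction.

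Leaving out 1 library at a time gave these ranges: TM in KO neurons 5 to 13 and 1 to 3; genotype in control neurons 0 to 9 and 0 to 5; TM in WT astrocytes 5 to 7 mitochondrial; TM in KO astrocytes 0 to 5 cytosolic; genotype in control astrocytes 0 to 18 and 0 to 3; genotype by TM 3 to 6 mitochondrial in neurons and 7 to 13 cytosolic in astrocytes; cell type by TM 2 to 5 cytosolic; the term of all 3 factors 0 to 1 cytosolic; cell type by genotype 0 to 2 mitochondrial; and cell types 5 to 8 mitochondrial. Of 227 called gene results, 221 kept direction and call with DESeq2, 222 with the block and 204 with the GC correction.

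The share of higher calls among all genes moved from 31.7% to 48.0% with the block in control astrocytes, and from 37.8% to 51.1% (GC correction) and 52.5% (DESeq2) in the term of all 3 factors. With no filter it moved from 49.7% to 69.1% for cell type by TM and from 58.4% to 71.0% for cell type by genotype. Depth limits the mitochondrial genes most, the lowest library having 65 counts of Sars2.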
